A study of Mus musculus with 4 samples.

Results

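Peaks of the transcription factor Foxo1 in mouse CD4+ T cells were examined at 6 genes of the FOXO and PI3K pathway, namely Foxo1, Foxo3, Irs2, Pik3ip1, Sesn1 and Akt1s1. A peak was taken when its summit lay in one of 6 windows of the mouse genome build mm9: chromosome 3, 52.022 to 52.205 Mb for Foxo1; chromosome 10, 41.855 to 42.047 Mb for Foxo3; chromosome 8, 10.937 to 11.059 Mb for Irs2; chromosome 11, 3.180 to 3.293 Mb for Pik3ip1; chromosome 10, 41.479 to 41.679 Mb for Sesn1; and chromosome 7, 52.054 to 52.161 Mb for Akt1s1. This gave 12 of 2507 peaks in the antibody list and 4 of 723 in the biotin list, and 0 in the Sesn1 window. The genes were chosen by their peaks in these same lists, so the presence, folds and overlaps of peaks are a description with no test.

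The peaks came from chromatin immunoprecipitation followed by sequencing (ChIP-seq), in which DNA bound by a protein is recovered and read. In the antibody ChIP, endogenous Foxo1 of CD4+ cells of C57BL/6 mice was recovered with a Foxo1 antibody (Abcam, Ab39670). In the biotin ChIP, CD4+ cells came from Foxo1tagBirA mice of the strain C57BL/6. These mice carry a tagged Foxo1 on both alleles, as the design text writes the genotype, and BirA, a bacterial ligase that adds biotin, and the protein was recovered on streptavidin. Each ChIP was 1 library, with an input library for each. No treatment, age or number of animals and no promoter of the BirA transgene was given in the sources used here, and a peak list cannot be checked against markers of CD4+ T cells. With 1 library a group there is no replicate error, and no read counts stood behind the lists, so the depth is unknown.

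FOXO proteins are forkhead transcription factors that PI3K signalling restrains. When PI3K is active, the kinase Akt phosphorylates them and they leave the nucleus. When it is not, they remain nuclear and switch on genes of quiescence, homing and survival in naive T cells, and in several tissues also genes that act back on insulin, PI3K and mTOR signalling. The 6 genes stand at different places in this circuit. Foxo1 and Foxo3 encode FOXO factors themselves. Irs2 encodes an adaptor that links insulin, IGF-1 and IL-4 receptors to PI3K. Pik3ip1 encodes a transmembrane inhibitor of PI3K, Sesn1 encodes a sestrin that restrains the growth kinase complex mTORC1, and Akt1s1 encodes PRAS40, an Akt substrate that inhibits mTORC1.

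Promoter sequences are shown for 3 of the genes because peaks lay near the point at which the windows place the gene's 5′ end, as described below. They are the 250 bases before the transcription start, read 5′ to 3′ along the gene, from RefSeq on build GRCm38.p6, and their positions cannot be set beside the mm9 positions of the peaks. The Foxo1 promoter (plus strand, chr3:52268087-52268336) is shown for the summit nearest to that point, the Irs2 promoter (minus strand, chr8:11008930-11009179) for its motif match, and the Akt1s1 promoter (plus strand, chr7:44850122-44850371) for the peak of highest fold. Capitals mark the match.
Foxo1: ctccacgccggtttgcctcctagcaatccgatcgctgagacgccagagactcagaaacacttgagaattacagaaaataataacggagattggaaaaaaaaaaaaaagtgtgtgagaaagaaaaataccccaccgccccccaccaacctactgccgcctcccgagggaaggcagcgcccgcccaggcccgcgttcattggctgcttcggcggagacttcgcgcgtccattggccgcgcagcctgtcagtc
Irs2: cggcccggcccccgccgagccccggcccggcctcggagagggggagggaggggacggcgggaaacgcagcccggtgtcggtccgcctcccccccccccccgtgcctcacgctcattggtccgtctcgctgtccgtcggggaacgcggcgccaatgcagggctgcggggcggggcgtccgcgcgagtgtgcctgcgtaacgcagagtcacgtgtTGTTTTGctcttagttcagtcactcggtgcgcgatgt
Akt1s1: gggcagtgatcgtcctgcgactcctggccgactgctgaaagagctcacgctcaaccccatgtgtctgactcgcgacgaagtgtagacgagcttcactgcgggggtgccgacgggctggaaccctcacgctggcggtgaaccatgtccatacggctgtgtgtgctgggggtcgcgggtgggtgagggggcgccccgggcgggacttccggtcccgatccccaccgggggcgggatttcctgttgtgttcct

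All 6 genes were found in the promoter table, Sesn1 with 2 promoters and the others with 1 each. Each was searched over 300 bases, 250 before and 50 after the start, for the forkhead motif GTAAACA and the insulin response motif CAAAACA on both strands. The second motif was added after the sequences had been seen. The Irs2 promoter held CAAAACA on the opposite strand, beginning 37 bp before the start, and 6.28% of the 32851 promoters of the table held this motif. One of the Sesn1 promoters held GTAAACA on the opposite strand, beginning 22 bp after the start, against 3.65% of all promoters. Neither motif occurred in these 300 bases of Foxo1, Foxo3, Pik3ip1 or Akt1s1. The sequences under the peaks themselves were not analysed here.

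The FOXO genes differed in whether the biotin list had a peak. At Foxo1, the gene of the factor itself, the antibody list held 2 peaks and the biotin list 0. The upstream peak (52066528 to 52066607, summit 52066575) had a fold of 7.40, above 28.8% of the antibody list, and the other (52071929 to 52071998, summit 52071980) had a fold of 13.1, above 73.5% of it. The fold is the authors' linear ratio for each peak. Its reference is not stated, so it is compared only within a list. The summits lay 5405 bp apart. The nearest biotin summit was 157606 bp from the upstream one, in a region outside the window where both lists had a peak (antibody fold 19.8, biotin fold 13.5). Of the whole antibody list 13.6% of peaks overlapped a biotin peak. Both Foxo1 peaks lay below the top 10% of that list by fold, where the share was 8.68%. An antibody peak without a biotin peak was therefore the usual case, and the difference from Foxo3 was not tested. The Foxo1 alleles themselves carried the tag in the biotin mice, whereas the antibody ChIP used endogenous Foxo1. At this gene the lists therefore differed in genotype as well as in recovery. An effect of the altered alleles on the peaks could not be separated and was not tested.

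At Foxo3, the gene of the related factor, the antibody list held 3 peaks whose summits spanned 1430 bp. The strongest (41998103 to 41998130, summit 41998105) had a fold of 29.0, above 96.5% of the list. The next peak along the gene (41997645 to 41997769) had a fold of 9.34, close to the list median of 9.43, and the third (41996669 to 41996688) had a fold of 14.2. The 1 biotin peak (41997907 to 41998137, summit 41998117) had a fold of 6.75, above 64.9% of the biotin list. It covered all 28 bp of the strongest antibody peak, and the summits of the pair were 12 bp apart. The middle antibody peak ended 137 bp short of the biotin peak and the third one 1218 bp short of it, so both counted as unshared. The biotin peak was 231 bp wide, against 20 to 125 bp for the antibody peaks here.

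At Irs2, the adaptor upstream of PI3K, both lists had peaks that did not touch. The antibody peaks lay at 11008922 to 11008975 with a fold of 17.3 and at 11009408 to 11009426 with a fold of 15.7. These were the most even folds of any of the 5 loci with peaks, with a ratio of 1.10 between them. The biotin peak (11009429 to 11009495, summit 11009462) had a fold of 4.37, above 25.6% of the biotin list and the lowest of the 4. It began 2 bp after the end of the second antibody peak, and their summits were 36 bp apart. That antibody peak was 19 bp wide and had its summit on its last base. Under an overlap of at least 1 bp the Irs2 site was therefore unshared, and neither peak was in the common list that the authors deposited with the antibody input. With summits within 200 bp as the criterion it was shared.

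**Figure D1:**
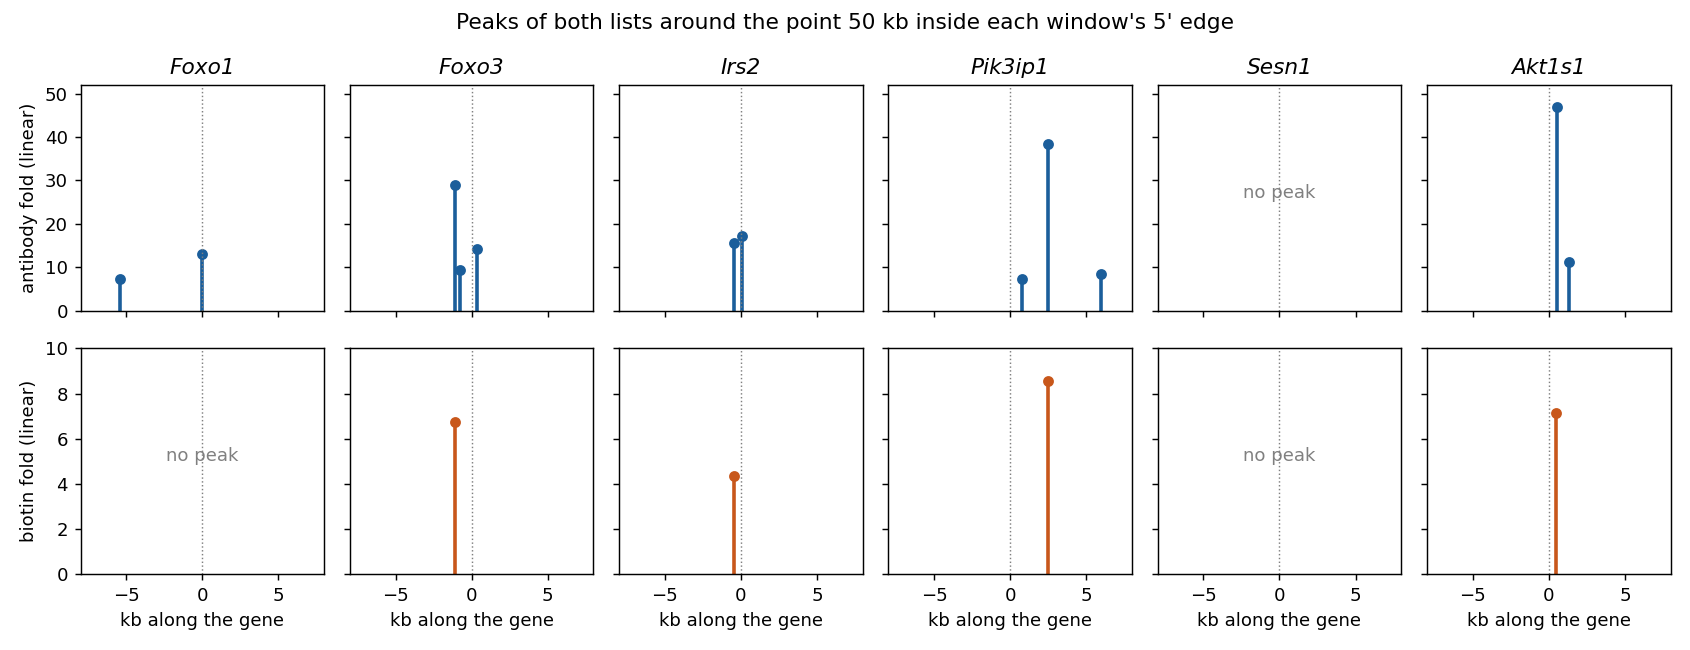
Peaks at the 6 genes, with the distance of the summit from the point 50 kb inside the window's 5′ edge on the horizontal axis (kb, positive along the direction of transcription) and the authors' linear fold on the vertical axis, for the antibody list (upper row) and the biotin list (lower row), which have separate scales. All 12 antibody summits lie within 6 kb of that point, Foxo1 has no biotin peak, and Sesn1 has no peak in either list.

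The inhibitor genes carried both the highest folds and an empty window. At Pik3ip1, the PI3K inhibitor, the antibody list held 3 peaks over 5198 bp. The middle one (3232403 to 3232498, summit 3232454) had a fold of 38.3 and ranked 25 of 2507. Its neighbours had folds of 7.20 (3230747 to 3230856) and 8.52 (3235946 to 3235999), both under the list median, and the ratio of highest to lowest fold, 5.32, was the largest among the 5 loci. The biotin peak (3232410 to 3232518) had a fold of 8.56, above 82.4% of the biotin list and the highest of the 4. It shared 89 bp with the middle antibody peak, and the summits were 43 bp apart.

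At Akt1s1, the gene of the mTORC1 inhibitor PRAS40, the antibody peak at 52104438 to 52104541 had a fold of 47.0 and ranked 9 of 2507. A second antibody peak (52105281 to 52105337), with its summit 794 bp away, had a fold of 11.2, above 63.8% of the list. The biotin peak (52104468 to 52104552) had a fold of 7.15, above 69.2% of the biotin list. It shared 74 bp with the stronger antibody peak, and the summits were 20 bp apart. By their highest fold, Akt1s1 stood above Pik3ip1 and Foxo3 in the antibody list, whereas Pik3ip1 stood above Akt1s1 and Foxo3 in the biotin list. The biotin folds of Pik3ip1, Akt1s1 and Foxo3 were close, at 8.56, 7.15 and 6.75. With 1 library and no replicate error, a difference in order between the lists was not tested. The RefSeq table places 10 other protein-coding genes within 50 kb of Akt1s1, among them Tbc1d17, Il4i1, Nup62 and Atf5. These peaks therefore cannot be given to Akt1s1 by position alone. The corresponding number was 0 for Foxo1 and Irs2, 1 for Foxo3 (Afg1l), and 2 each for Pik3ip1 (Patz1 and Limk2) and Sesn1 (Cep57l1 and Armc2).

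The Sesn1 window, of 200 kb, held 0 peaks of either list. The nearest antibody summits lay 309 kb before it, with a fold of 5.32, and 318 kb after it. The latter was the Foxo3 peak of fold 14.2, since both genes lie on the same stretch of chromosome 10. A list holds only peaks past its threshold, so signal below it was not detectable here.

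**Figure D2:**
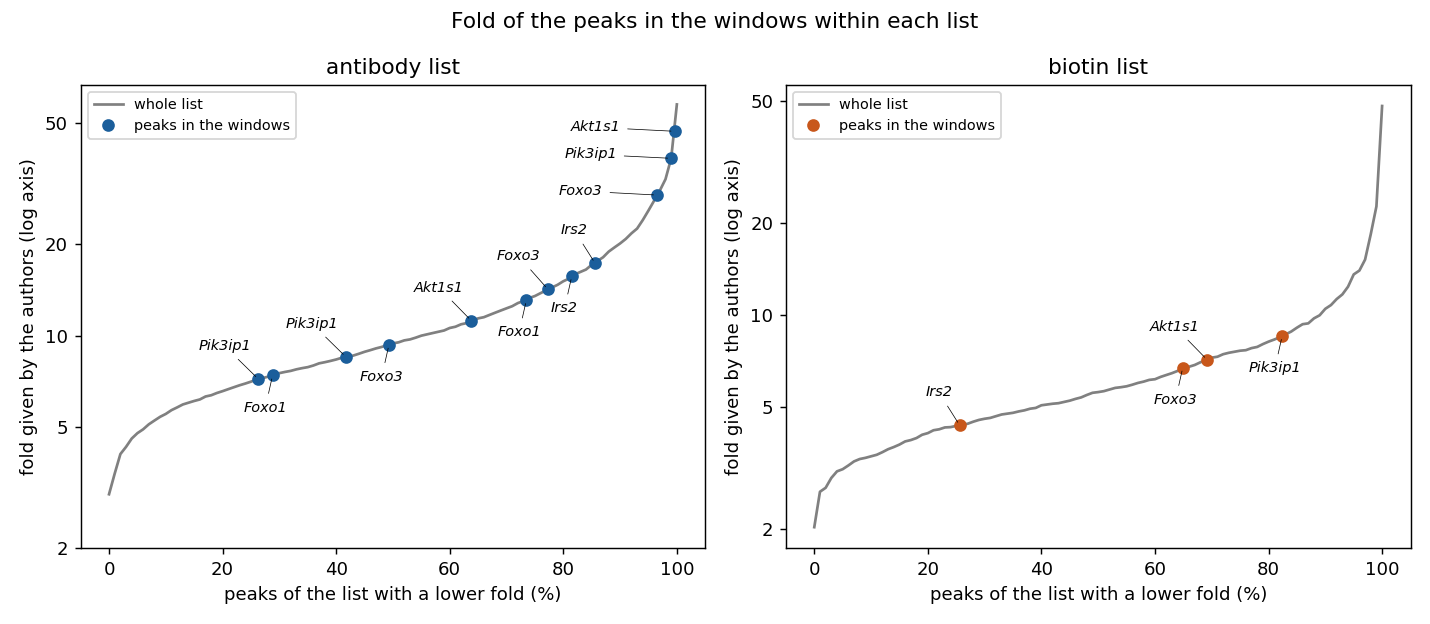
Fold given by the authors (log axis) against the percentage of peaks of the same list with a lower fold, for the antibody list (left) and the biotin list (right), with the whole list as a line and the peaks at the 6 genes as points named by gene. In the antibody list the peaks run from 26.3% to 99.6%, with Akt1s1, Pik3ip1 and Foxo3 at the upper end, and in the biotin list from 25.6% to 82.4%.

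Across the 12 antibody peaks the median fold was 13.7 (range 7.20 to 47.0), against 9.43 (3.01 to 57.6) in the whole antibody list, and 8 of 12 were at or above the list median. The 4 biotin peaks had a median of 6.95 (4.37 to 8.56), against 5.61 (2.03 to 48.3) in the biotin list. The top 10% of the antibody list held 3 of the 12 and the top 10% of the biotin list 0 of the 4. The authors' p-values were listed as 0 for 2 of the 12 antibody peaks, against 406 of 2507 in the whole list, and ran up to 9.66e-14 in the 12. For the 4 biotin peaks they were listed as 0 for 1, against 145 of 723 in the whole list, and ran up to 1.58e-14 in the 4. The median width of the antibody peaks was 63.5 bp here and 90 bp in the list, and that of the biotin peaks 97 bp here and 84 bp in the list. None of these differences was tested, since the genes were picked with their peaks known.

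The antibody peaks stood in groups. Each of the 12 had another antibody summit within 10 kb, whereas 19.1% of the whole list did (478 of 2507). The distance of 10 kb was chosen after the positions had been seen. The genes were also picked with their peaks known, and every window with a peak held 2 or 3 antibody peaks. A high count of neighbours was therefore partly set by the choice, and the difference from the list was not tested. Within 5 kb the count was 10 of 12 (14.7% of the list), leaving out both Foxo1 peaks, and within 1 kb it was 6 of 12 (8.86% of the list), namely both Irs2 peaks, both Akt1s1 peaks and 2 of the 3 Foxo3 peaks. Of the 4 biotin peaks 0 had another biotin summit within 10 kb, and in the whole biotin list 9.96% did (72 of 723), so a count of 0 among 4 is near the share of the list. Their next biotin summits were 305126 to 2408674 bp away. In the antibody list the 6 windows, 0.917 Mb in all, held 13.1 peaks per Mb. The corresponding density was 1.01 over the spans between the outermost peaks of each chromosome. In the biotin list the densities were 4.36 and 0.304. The windows were picked with their peaks known, so a high density was set at least in part by the choice and was not tested.

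Shared peaks were those of highest fold. By an overlap of at least 1 bp, 3 of the 12 antibody peaks (25%, exact Clopper-Pearson 95% interval 5.49 to 57.2%) met a biotin peak, against 13.6% of the whole list. Of the 4 biotin peaks, 3 (75%, 19.4 to 99.4%) met an antibody peak, against 47.2%. These intervals cover counting error over peaks only. The genes were picked with their peaks known and peaks of a locus are not independent, so the intervals do not test the shares against the list. The 3 shared antibody peaks were the 3 in the top 10% of the list, where 58.0% of all peaks were shared. The other 9 lay below it, where 8.68% were shared, and 0 of the 9 were. With a biotin peak within 1000 bp as the criterion the count was 7 of 12 antibody peaks, against 17.0% of the list, and 4 of 4 biotin peaks, against 56.0%. Several of these 7 antibody peaks stood beside the same biotin peak, so they are not separate instances.

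The 12 antibody peaks formed 5 clusters, 1 per gene, when summits within 10 kb were joined. A shared peak was present in 3 of the 5 (Foxo3, Pik3ip1 and Akt1s1), against 32.7% of the 226 clusters of 2 or more summits in the whole list. Of those 226 clusters 205 had 2 summits, whereas Foxo3 and Pik3ip1 had 3 each, which gives more places for a shared peak. The genes were also picked with their peaks known, so the difference was not tested. In each of the 3 clusters with a shared peak, that peak was the one of highest fold in its cluster. The same held for 85.3% of the 68 clusters with exactly 1 shared peak. The 3 pairs were the only peaks of these genes in the common list, which therefore held neither Foxo1 nor Irs2. For the peaks of these genes the common list matched the overlap of at least 1 bp throughout. It is thus no further evidence.

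**Figure D3:**
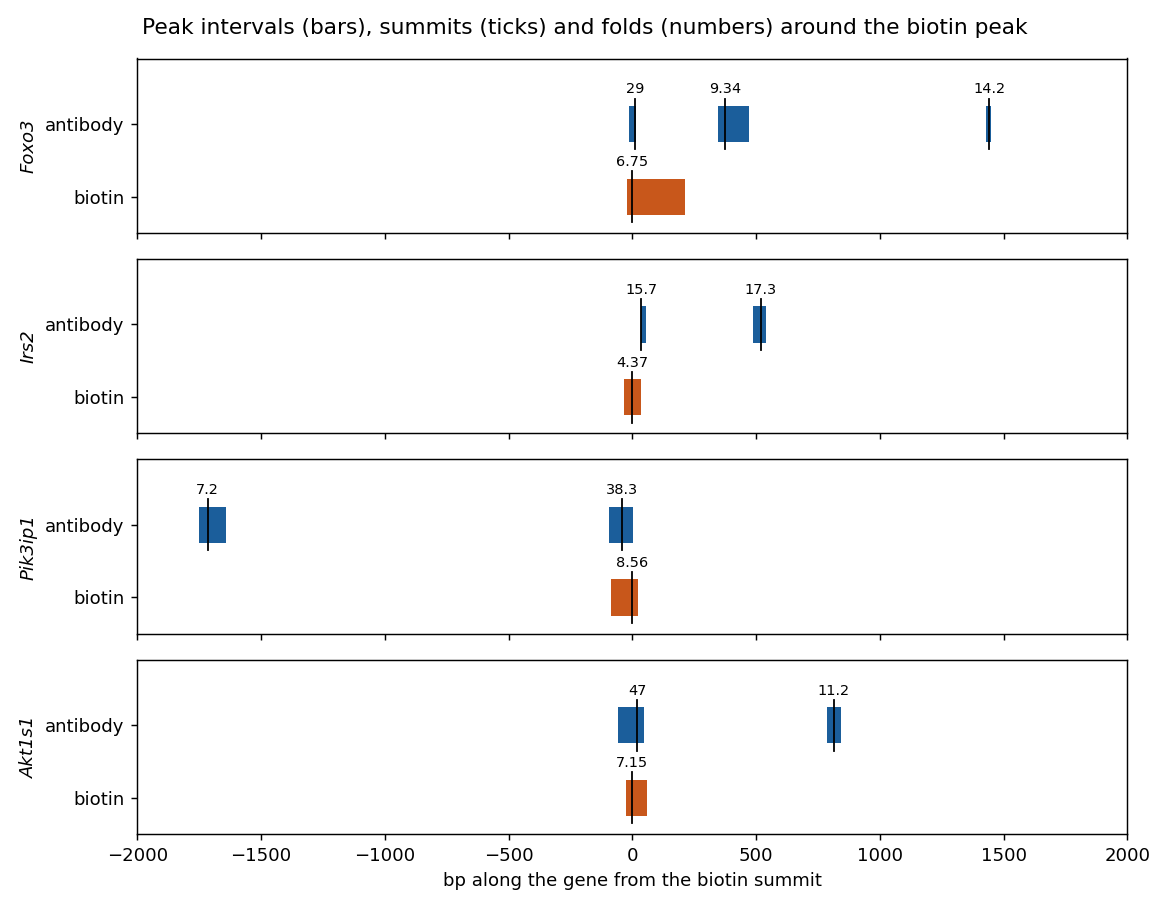
Peak intervals (bars), summits (ticks) and folds (numbers) of the antibody and biotin lists within 2000 bp of the biotin summit at the 4 genes with peaks in both lists, in bp along the direction of transcription. The biotin peak lies over the strongest antibody peak at Foxo3, Pik3ip1 and Akt1s1 and 2 bp beside a narrow one at Irs2, and 1 Pik3ip1 antibody peak is outside the range.

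Peaks lay close to a fixed point in each of the 5 windows that held any. Gene starts on mm9 were not used here, but the lengths of the windows could be set beside those of the genes. Less 50 kb on each side the windows measured 83, 92, 22, 13, 100 and 7 kb for Foxo1, Foxo3, Irs2, Pik3ip1, Sesn1 and Akt1s1. From the promoter's start site to the other end of the gene, the RefSeq tables gave 81.8, 94.8, 24.2, 12.2, 97.9 (from the first of 2 promoters) and 5.05 kb. For Pik3ip1 the whole gene in the RefSeq table was 23.7 kb long, so its annotated edge lay farther upstream than the promoter used. The same held to a lesser degree for Akt1s1, whose whole gene was 6.2 kb long. The point 50 kb inside the window's edge on the 5′ side was therefore taken in place of the gene's start, which it can mark only to within a few kb, and at Pik3ip1 only for the promoter in the table and not for the edge of the gene. Of the 12 antibody summits, 4 lay within 0.5 kb of this point, 9 within 1.5 kb and all 12 within 6 kb. The Foxo1 summit of fold 13.1 was 20 bp upstream of it, and the other was 5425 bp upstream. The Irs2 summits lay 56 bp downstream and 426 bp upstream. The Foxo3 summits ran from 1105 bp upstream to 325 bp downstream, with the strongest farthest upstream. At Pik3ip1 all 3 were downstream, at 782, 2454 and 5980 bp, and at Akt1s1 both were, at 514 and 1308 bp. On which side of the Akt1s1 promoter shown above these 2 summits lay cannot be told, since the point may lie upstream of it. The same limit applies at the other genes to summits within a few kb of the point. Upstream and downstream here refer to the point and not to a start site. The 4 biotin summits lay 462 bp upstream of the point at Irs2, 1117 bp upstream at Foxo3, 494 bp downstream at Akt1s1 and 2497 bp downstream at Pik3ip1. Distances of this kind were not computed for the rest of either list, since gene starts on mm9 were not used. Closeness to the point therefore cannot be called particular to these genes.

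The edges of the windows did not decide the counts. The member closest to an edge was the upstream Foxo1 peak, 44.6 kb inside. The peak closest outside was an antibody peak of fold 5.27, 25.8 kb before the Akt1s1 window, and the next closest were the pair 113 kb before the Foxo1 window.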

How the data were processed

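Peak lists of an antibody ChIP and a biotin ChIP of Foxo1 were used, with 1 library each, and the list deposited with the antibody input, which holds the common peaks. Bowtie 0.12.7, CASAVA 1.4 and the build mm9 are named, per the submitters' processing notes, and no peak caller is given in the sources used here. The deposited fold of each peak is a linear ratio and the deposited p-value is the authors' own, per the file headers. Starts were raised by 1 so that positions count from 1. Members were peaks with a summit in a window, and all are named. Overlap meant at least 1 bp, computed with Python 3.11.15, pandas 2.3.3 and SciPy 1.17.1 and tested on simulated lists with planted overlaps. Ranks are by fold within a list. Shares carry exact Clopper-Pearson 95% intervals. No test between groups was made. Members, windows and measures were chosen with earlier results of these data known. A list of 40 further pathway genes and the genes of most similar pattern were not placed, since no mm9 annotation was used here. The closing section gives the alternatives.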

Additional observations from a re-analysis of the deposited data

How the results depend on the processing

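No paired analysis was possible because the groups hold a single library each, so leaving out a replicate was not an option either. Of 38 recomputed values, 30 stayed within 1.5 times the count or within the interval of the value given above, and 8 did not. The 30 are no measure of robustness, since several values could hardly move. Shares were judged by wide intervals, and the count and the share of the same peaks were recomputed separately. Windows shrunk by 25 kb could not lose a peak, since the member closest to an edge lay 44.6 kb inside. In the top 25% of each list by fold, 6 antibody peaks and 1 biotin peak were left. A shorter list can only lower these counts or leave them, and how many stay depends on the folds of the peaks. With peaks within 1000 bp counted as shared, 7 antibody peaks (58.3%) and 100% of the biotin peaks were shared. With summits within 200 bp, and in the top 50% of each list, 100% of the biotin peaks were shared as well, in the latter case because the Irs2 peak was no longer in the list. With a neighbour distance of 1 kb in place of 10 kb, an alternative added after seeing the data, 6 antibody peaks had a neighbour. Counts of 12 and 4 held with windows shrunk by 25 kb on each side. With windows widened by 50 kb there were 13 antibody peaks. Unknown depth limits each statement on a missing peak, at Sesn1 in both lists and at Foxo1 in the biotin list.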
